A study of Mus musculus with 6 samples.

Results

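The peaks described here are the ATAC-seq peaks whose nearest annotated gene was a microRNA gene. They were chosen by symbol alone, as every distinct peak of the deposited comparison whose gene symbol begins with Mir or Mirlet followed by a digit. The rule gave 1806 of 92864 peaks, which carried 562 symbols. ATAC-seq uses the Tn5 transposase to cut and tag open chromatin, so that the reads in a peak measure how accessible that stretch of DNA was. Bone marrow derived macrophages (BMDM, 3 libraries) were compared with microglia (MG, 3 libraries), both taken by cell sorting out of SB28 tumours, a mouse glioma model grown in the brain. The genotype is labelled WT and the tumours isogenic. The BMDM gate was CD45+ with CD49d high, the MG gate was CD45 low with CD49d low or negative, and F4/80+, CD11b+, LY6C low or negative and LY6G- applied to both. The 2 groups were thus separated by surface markers alone, so a gate can hold cells of more than 1 kind.

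MicroRNAs are short RNAs that pair with messenger RNAs, mainly through the seed at bases 2 to 8, and lower their translation or stability. They are cut from long primary transcripts, first by Drosha with Dgcr8 in the nucleus and then by Dicer1 in the cytoplasm. Many lie in introns of protein-coding genes or share 1 transcript as a cluster. In macrophages, miR-155 is known as an activation-induced microRNA, miR-146a as a brake on NF-kB signalling, and miR-142 as a microRNA of blood cells. MiR-124 and miR-9 are known as neural microRNAs. An annotated microRNA start is the end of its hairpin and not the start of the primary transcript, which can lie many kilobases away.

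The mature sequences of the microRNAs on which the results turn are given to show which of them share a seed, with the seed in capitals, 5′ to 3′, from RefSeq (GRCm38.p6).
mmu-miR-155-5p: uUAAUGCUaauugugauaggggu
mmu-miR-142a-3p: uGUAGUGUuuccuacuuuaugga
mmu-miR-142a-5p: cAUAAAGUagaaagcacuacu
mmu-miR-147-5p: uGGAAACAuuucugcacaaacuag
mmu-miR-511-3p: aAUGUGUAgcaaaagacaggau
mmu-miR-33-5p: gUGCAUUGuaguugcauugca
mmu-miR-101b-3p: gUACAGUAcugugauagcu
mmu-miR-221-3p: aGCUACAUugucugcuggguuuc
mmu-miR-222-3p: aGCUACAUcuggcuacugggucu
mmu-miR-148a-3p: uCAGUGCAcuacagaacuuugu
mmu-miR-181a-5p: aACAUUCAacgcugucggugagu
mmu-miR-181b-5p: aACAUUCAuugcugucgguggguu
mmu-miR-9-5p: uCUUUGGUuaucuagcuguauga
mmu-miR-30a-5p: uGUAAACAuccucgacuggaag
mmu-miR-34b-5p: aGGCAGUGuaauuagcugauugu
mmu-miR-99a-5p: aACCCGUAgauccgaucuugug
mmu-miR-100-5p: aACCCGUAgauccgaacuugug
mmu-miR-7000-5p: aGGGGACAgguaucuggacaga
mmu-miR-7218-5p: uGCAGGGUuuaguguagaggg
MiR-221 and miR-222 share a seed, miR-181a and miR-181b share another, and miR-99a and miR-100 share theirs, so members of each pair can act on overlapping targets. Among the 757 mature sequences of the genes with peaks there were 685 distinct seeds, of which 63 were shared by 2 or more genes. Of the 562 symbols, 475 matched a RefSeq hairpin. The let-7 seed belonged to 6 of these genes, the largest number.

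Coverage of the hairpins themselves was sparse. Only 84 of the 1806 peaks held a whole hairpin, and 396 lay within 3 kb of the annotated start, 771 within 10 kb and 212 beyond 100 kb. The median distance to the annotated start was 13580 bp, against 9399 bp over all peaks of the table. A total of 840 peaks (46.5%) lay inside the span of a protein-coding gene, and 68 covered the promoter window of another gene. A peak is therefore reported by the microRNA nearest to it, which need not be the gene it acts on. By annotation class, 622 peaks (34.4%, against 29.2% of all peaks of the table) were distal intergenic, 607 (33.6%, against 32.7%) were intronic and 396 (21.93%, against 30.01%) lay in promoters of the annotated gene. The median peak had a mean of 37.6 normalized counts, against 45 over all peaks. No peak had Mir223, Mir22, Mir125a, Mir137, Mir124a-1 or Mir124a-2 as its nearest gene, so these microRNAs are not analysed here.

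Reads in peaks ranged from 4910448 to 19727511 in the BMDM libraries and from 12531808 to 23601865 in the MG libraries. Values are normalized counts, which are reads divided by the authors' size factors, and differences are log2, BMDM minus MG, relative to the median peak (median difference -0.14) or the median gene (-0.27). P-values refer to the unshifted difference. Markers of neural and glial cells summed to 8492, 8260 and 7567 normalized counts in BMDM 1, 2 and 3, and to 9986, 22196 and 14309 in MG 1, 2 and 3. Of the 19 such markers measured, 1 was higher and 8 were lower in BMDM, and only Aqp4 had no peak. Of 9 monocyte and macrophage markers tested, 5 were higher in BMDM and 0 lower, and of 10 microglia markers 0 were higher and 2 lower. Of the neutrophil markers tested, 2 of 8 were higher. Of 8 T and NK cell markers 1 was higher, and of 5 endothelial markers 1 was lower. Of the 4 B cell and 3 dendritic cell markers 0 were called. Over all genes tested, 2.14% were called higher in BMDM and 3.48% lower. No label ties a library to an animal of its own, so the p-values cover the spread among libraries, which may be technical. In such bulk samples, fewer cells of a type and less signal per cell cannot be told apart.

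As a class, the microRNA peaks differed between BMDM and MG about as often as peaks did across the genome. Of the 1703 peaks with enough reads to test (a mean of at least 10 normalized counts), 103 (6.05%) were higher in BMDM at an adjusted p under 0.05, against 5.33% of all 87944 peaks tested. Another 26 (1.53%) were lower in BMDM, against 1.54% of all peaks. The 2 groups of libraries did not overlap at 296 peaks higher in BMDM (17.4%, background 17.0%) and at 218 lower in BMDM (12.8%, background 12.9%). These shares are near the background and are no result about microRNAs. By the adjusted p of the authors' deposited table, 174 of the tested peaks were higher (background 9.41%) and 120 lower (background 5.68%), and these included all 129 calls made here. The test was limma with a trend and Benjamini-Hochberg adjustment over all peaks. Adjusted p-values of the called peaks lay between 0.026 and 0.049, and no peak of the table passed without BMDM 1, without BMDM 2 or without MG 3, nor with limma's voom. At an unadjusted p under 0.05, 217, 189, 194 and 270 microRNA peaks were higher in these 4 fits, and 109, 118, 98 and 154 lower. Over all 87944 peaks tested the same 4 fits gave 10502, 9148, 9798 and 13899 higher and 5360, 5658, 4632 and 7149 lower. With all libraries, that unadjusted threshold was passed by 15.3% of all peaks as higher in BMDM and 9.58% as lower, and by 6.24 and 15.6% of all genes. Without MG 1, 203 microRNA peaks were higher and 250 lower in BMDM, and these included all 103 and all 26 calls.

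**Figure D1:**
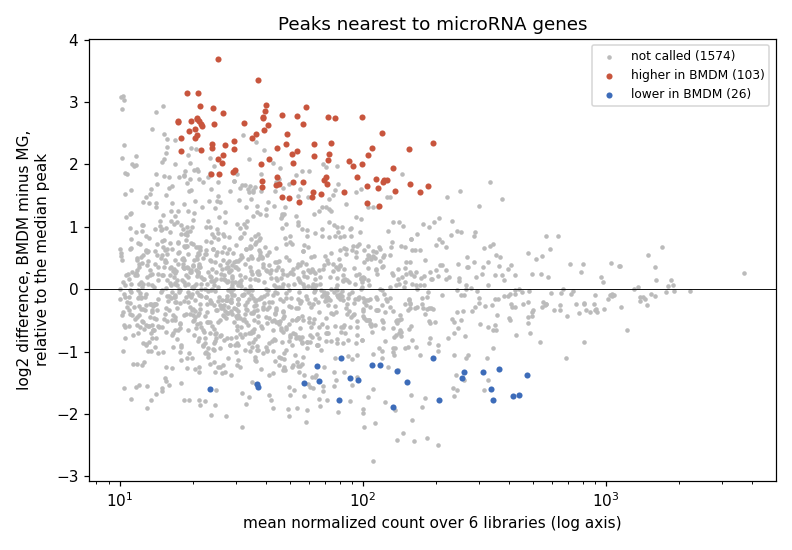
Each point is 1 of the 1703 tested peaks nearest to a microRNA gene, by its mean normalized count (log axis) and its log2 difference, BMDM minus MG, relative to the median peak. Peaks higher in BMDM (103) lie at 1.34 or more and peaks lower in BMDM (26) at -1.11 or less, and the rest were not called.

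At the level of genes, with all peaks within 100 kb of a start summed, 18 of 526 microRNA genes tested (3.42%) were higher in BMDM, against 2.14% of all 18251 genes, and 17 (3.23%) were lower, against 3.48%. Higher calls made up 51.4% of these calls. The groups did not overlap at 57 genes higher in BMDM (10.8%, background 6.87%) and 91 lower (17.3%, background 21.5%). The share of higher calls depended on how the libraries were scaled: it was 69.2% with TMM factors, 80.0% with library totals and 82.6% with cyclic loess. Over all genes tested the share moved in the same way, from 38.1% to 58.0% with TMM factors, 69.1% with library totals and 73.8% with cyclic loess. With these scalings 8, 5 and 6 of the 17 lower calls were kept. No gene of the table passed without BMDM 2, where an unadjusted p under 0.05 was reached by 33 microRNA genes higher and 52 lower in BMDM, and by 684 and 2159 of all 18251 genes.

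Among known myeloid microRNAs, 1 of the 10 tested peaks of Mir155hg was more open in BMDM, while its gene sum did not pass (difference 0.77, adjusted p 0.411 by limma). The peak over the annotated start of Mir155hg, the host transcript of miR-155 (chr16:84712942-84713572, mm10), had 181, 249 and 116 normalized counts in BMDM 1, 2 and 3, against 40.5, 84.2 and 54.4 in MG 1, 2 and 3. The 3 BMDM libraries all lay above the 3 MG libraries, and the difference was 1.72 ± 0.39 (SE), with an adjusted p of 0.0426 by limma. Without MG 1 it was 1.42. This peak was singled out after its values were seen. A second annotated Mir155hg start upstream (chr16:84702590-84703720) had 177, 389 and 159 normalized counts in BMDM and 311, 253 and 223 in MG, and its difference of -0.09 did not pass. The groups overlapped there. Upstream of both, peaks about 92 to 99 kb from the annotated start differed by 1.85, 2.01 and 2.03, without passing the threshold (adjusted p by limma 0.0539, 0.0583 and 0.103). The only peak assigned to Mir155 itself, 2329 bp past the hairpin start, had 17.9, 22 and 34.4 normalized counts in BMDM and 10.3, 8.75 and 4.86 in MG and did not pass (adjusted p 0.124 by limma). Its groups did not overlap.

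The promoter window of Mir155hg, from 250 bases before to 50 after its start, overlaps the called peak by 131 of its 631 bases (chr16:84712773-84713072, plus strand, RefSeq GRCm38.p6). The rest of the peak lies outside the window and was not searched. The window is printed because part of the accessible site lies there.
Mir155hg: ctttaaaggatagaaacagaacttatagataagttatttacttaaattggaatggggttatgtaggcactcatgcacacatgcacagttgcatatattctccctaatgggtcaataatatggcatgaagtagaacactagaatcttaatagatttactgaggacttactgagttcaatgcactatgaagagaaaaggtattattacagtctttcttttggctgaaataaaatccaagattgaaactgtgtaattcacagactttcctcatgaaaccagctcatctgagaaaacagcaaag
Searched on both strands, this window held no match to 5 short motifs chosen after the values were seen: AP-1 (TGANTCA), C/EBP (TTGCNNAA), PU.1 (GAGGAAG), the NF-kB motif and the interferon-stimulated response element (ISRE). Of 32851 such windows, 7.8% held the AP-1 motif, 10.8% that of C/EBP, 13.6% that of PU.1, 50.8% that of NF-kB and 3.4% the ISRE. The absence of these letters says nothing about the binding of the factors.

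In the myeloid and inflammation list, 4 of 96 tested peaks were higher in BMDM and 0 lower, against 5.33 and 1.54% of all peaks. The higher share is not above that of all peaks. The 4 included single peaks of Mir147 and Mir511. Mir147, whose microRNA is induced by Toll-like receptors, had a peak 14956 bp past its start with 258, 366 and 121 normalized counts in BMDM and 32.5, 112 and 37.9 in MG. The lowest BMDM library stood just above the highest MG library, and the difference was 2.24 ± 0.53 (SE, adjusted p 0.0453 by limma). This peak was chosen after its values were seen. The Mir147 peak with the highest mean, 24505 bp past the start, had 325, 620 and 228 in BMDM and 151, 462 and 205 in MG. It differed by 0.7 and did not pass (adjusted p 0.519 by limma), and its groups overlapped. The Mir147 gene sum of 3 peaks differed by 1.21, its groups overlapped and it did not pass (adjusted p 0.141 by limma). Mir511, which lies in an intron of the mannose receptor gene Mrc1, had an intronic peak at 18237 bp with 109, 48.6 and 50.7 normalized counts in BMDM and 4.76, 13.7 and 10.7 in MG. It rose by 2.85 ± 0.51 (SE, adjusted p 0.0264 by limma), without overlap between the groups. Its MG mean was 9.71 normalized counts, so this peak passed the filter of 10 only through BMDM. The Mir511 peak with the highest mean, 10501 bp before the start, had 139, 127 and 70.7 normalized counts in BMDM and 194, 101 and 117 in MG and did not pass, nor did the Mir511 gene sum (adjusted p 0.478 by limma).

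Mir142, a blood cell microRNA, had its largest peaks at levels that overlapped between the groups. The peak that holds the hairpin, assigned to Mir142b, which lies on the opposite strand, had 2369, 1513 and 1165 normalized counts in BMDM and 2329, 896 and 1275 in MG, with a difference of 0.35 (adjusted p 0.802 by limma). The smaller peak 5054 bp upstream had 236, 186 and 147 in BMDM and 74.6, 54.7 and 53.5 in MG, and it rose by 1.75 ± 0.32 (SE, adjusted p 0.028 by limma). Only this smaller site stood clear of MG in all 3 BMDM libraries.

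The cluster of Mir221 and Mir222, which restrain cell cycle inhibitors, was more open in BMDM. Its peaks within 100 kb, all assigned to Mir222, summed to 611, 864 and 409 normalized counts in BMDM and 263, 312 and 263 in MG, without overlap, and the gene sum of Mir222 differed by 1.37 ± 0.30 (SE, adjusted p 0.043 by limma). The 10 tested peaks of Mir222 differed by 0.85 to 1.87; 1 of them, 90536 bp before the start, passed with 1.71 ± 0.36 (SE, adjusted p 0.0353 by limma). Mir33, in an intron of Srebf2 and known to restrain cholesterol export, had 63.5, 66.7 and 41.7 normalized counts in BMDM and 19, 23.5 and 15.5 in MG at a peak 1265 bp before its start. It was higher in all 3 BMDM libraries and differed by 1.64 ± 0.37 (SE, adjusted p 0.0434 by limma). The Mir33 gene sum holds this 1 peak and did not pass among genes (adjusted p 0.0773 by limma). Mir101b also had called peaks: those 44764 and 49727 bp past its start were higher in BMDM by 2.34 and 1.62 (chosen after their values were seen), while its gene sum of 7 peaks differed by 1.56 and did not pass (adjusted p 0.0534 by limma).

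**Figure D2:**
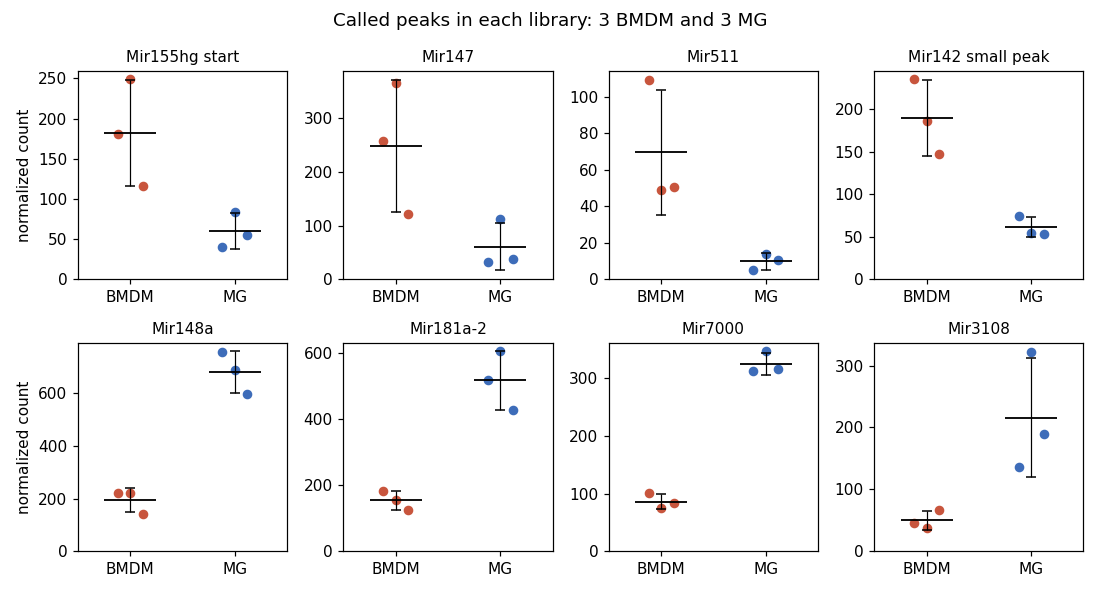
Normalized counts of 8 called peaks in the 3 BMDM and 3 MG libraries (points, with mean and SD), on linear axes from 0. The 4 upper peaks were higher in BMDM and the 4 lower ones were lower, and in none did a BMDM library cross an MG library. For each of 8 chosen symbols the called peak with the highest mean is shown, so this separation largely follows from the choice. The Mir511 peak passed the filter only through BMDM.

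Several inflammation microRNAs did not pass. The highest peak of Mir21a, an abundant microRNA of tumours and inflammation, had 1537, 1283 and 690 normalized counts in BMDM and 1056, 893 and 798 in MG, a difference of 0.42 (adjusted p 0.682 by limma). That of Mir146, the miR-146a gene, had 661, 588 and 408 in BMDM and 1280, 976 and 957 in MG, and differed by -0.84 with an adjusted p of 0.098 by limma. BMDM lay below MG in all libraries at that site, while the 13 peaks of Mir146 ranged from -1.58 to 1.5 and 0 of them passed. Mir22hg, Mir23a and Mir29b-1 carried the largest gene sums of the list, at 4519 ± 2073, 5215 ± 2313 and 4285 ± 1535 normalized counts in BMDM against 3844 ± 1032, 5543 ± 1567 and 4346 ± 429 in MG (SD over 3 libraries), and none of the 3 passed. Mir10a, in the Hox cluster, had 85.3, 80.9 and 34.4 in BMDM and 27.8, 14.8 and 19.4 in MG, without overlap, but an adjusted p of 0.0613 by limma as a peak.

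At Mir148a, a microRNA known to target DNA methyltransferases, 3 of 14 tested peaks were lower in BMDM. Those at 90837, 96136 and 98699 bp past the start fell by 1.72, 1.69 and 1.78, each with an adjusted p of 0.026 by limma. The middle one (chr6:51171956-51173774) had 222, 221 and 141 normalized counts in BMDM and 756, 688 and 599 in MG. BMDM libraries all lay far below MG libraries, and the gene sum of 9 peaks was 792 ± 143 in BMDM libraries against 2349 ± 194 in MG libraries (SD over 3), lower by -1.31 ± 0.29 (SE, adjusted p 0.00731 by limma). The other 11 tested peaks ranged from -1.53 to 1.62 and did not pass, among them the peak 396 bp before the start at -0.65. Mir148a is in no list and was named by the size of its called losses.

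Mir181a-2, of a family known for tuning lymphocyte signalling, fell at both of its tested peaks in the Nr6a1 span. The larger one had 183, 155 and 127 normalized counts in BMDM and 520, 607 and 429 in MG, and differed by -1.60 ± 0.30 (SE, adjusted p 0.026 by limma). Without MG 1 it differed by -1.65. At the Mir181a-1 locus, a separate copy of the same mature sequence, the 2 called peaks moved the other way: peaks 102565 and 159377 bp before the start were higher in BMDM by 2.53 and 1.91. The peak at 102565 bp averaged 5.23 normalized counts in MG, so it passed the filter only through BMDM and its fitted difference depends on the pseudocount. The peak at 159377 bp averaged 12.6 in MG. The gene sum of Mir181a-1, which leaves both peaks out because they lie beyond 100 kb, differed by -0.30 and did not pass. The cluster of Mir181a-2 and Mir181b-2 summed to 262, 218 and 188 in BMDM and 697, 793 and 558 in MG.

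**Figure D3:**
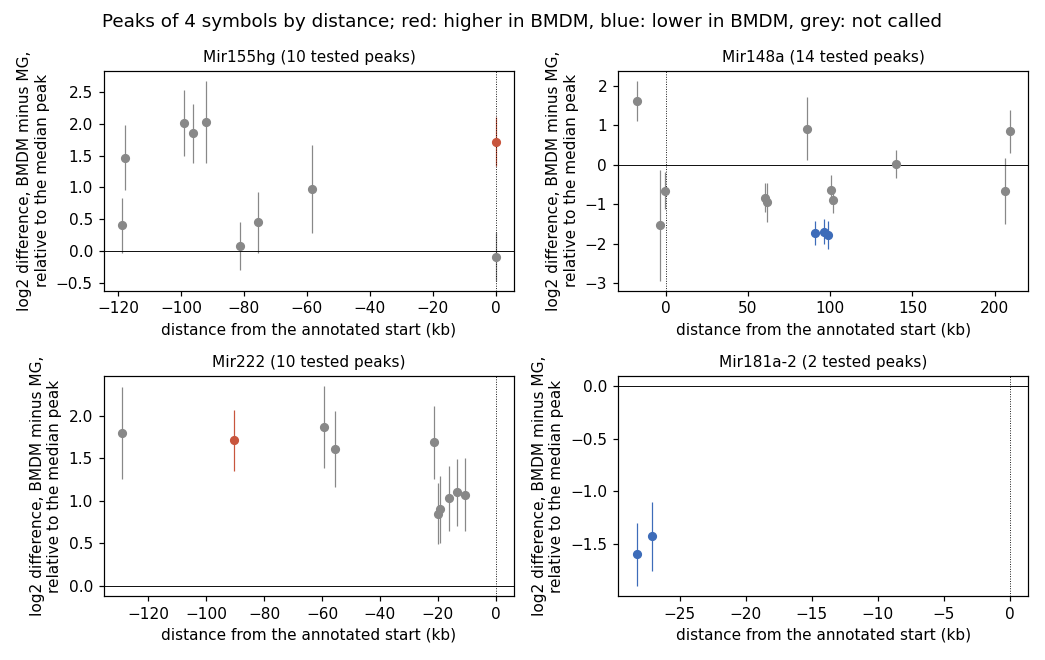
Each point is a tested peak of Mir155hg, Mir148a, Mir222 or Mir181a-2, by distance from the annotated start (kb) and log2 difference, BMDM minus MG, relative to the median peak, with its standard error. Called peaks are coloured red (higher in BMDM) or blue (lower), and the Mir148a calls lie at 91 to 99 kb.

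Of the neural microRNA genes, only Mir9-2 passed. Its gene sum had 39.7, 84.2 and 90.6 normalized counts in BMDM and 97.6, 377 and 263 in MG, and its difference was -1.38 ± 0.46 (SE), with an adjusted p of 0.0449 by limma. It was -2.02 without MG 1 and -0.96 without MG 2. None of its peaks passed alone. MG 2 was the highest library and MG 3 the next, while MG 1 lay close to BMDM. Other neural genes differed in the spread of the MG libraries. These lay close together at Mir124a-3, with 121, 141 and 154 in BMDM and 154, 134 and 128 in MG. They lay far apart at Mir219a-2 (18.2, 268 and 83.6 in MG) and Mir138-2 (6.35, 102 and 29.2), again with MG 2 highest and MG 1 lowest. That order was also seen at Mir9-3hg, Mir7-2 and Mir129-1, while MG 1 was highest at Mir132, Mir182 and Mir9-3. The order seen at Mir9-2 also held, outside the neural and glial list, at the Mir100hg start peak, with 21.8, 32.4 and 47.1 in BMDM and 40.5, 214 and 109 in MG, and at the highest peaks of Mir99a, Mir378b and Mir205, none of which passed. These loci were singled out after their values were seen. The Mir100hg peaks summed to a difference of -0.83 in all libraries, of -1.72 without MG 1 and of -0.14 without MG 2. The neural and glial marker sum ran in the same order in MG, and its part in these results was not tested. Of 34 tested peaks of the neural and glial list 0 passed by limma in either direction (without adjustment 2 had a p under 0.05 as higher and 6 as lower, against 15.3 and 9.58% of all peaks; median -0.15). In the myeloid and inflammation list 4 of 96 tested peaks were higher and 0 lower by limma (21 and 6 unadjusted; median 0.22), against 5.33 and 1.54% of all peaks.

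Other microRNAs with lower gene sums in BMDM were Mir34b, a microRNA induced by p53, with 77.4, 89.4 and 76.1 in BMDM and 235, 148 and 168 in MG, Mir30a with 563, 439 and 337 in BMDM and 1292, 884 and 884 in MG, and the liver microRNA Mir122 with 85.3, 99.1 and 65.2 in BMDM and 197, 177 and 176 in MG. BMDM and MG did not overlap at any of the 3, and the adjusted p-values were 0.0492, 0.0265 and 0.047 by limma. The Mir34b gene sum holds 1 peak, which covers the hairpin and lies in the spans of Btg4 and Hoatz. That peak did not pass among peaks (adjusted p 0.0512 by limma). The highest peak of Mir122, 22788 bp past the start and inside Alpk2, did not pass among peaks either (adjusted p 0.0639 by limma). Of the let-7 family, which restrains growth, 0 of 17 tested peaks passed by limma (0 higher and 3 lower unadjusted, against 15.3 and 9.58% of all peaks) and the median difference was -0.21. The Mir210 peak, at the hypoxia microRNA, had 881, 588 and 464 in BMDM and 626, 742 and 670 in MG (difference 0.01), and the highest peak of Mir17 differed by -0.11. Neither passed.

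**Figure D4:**
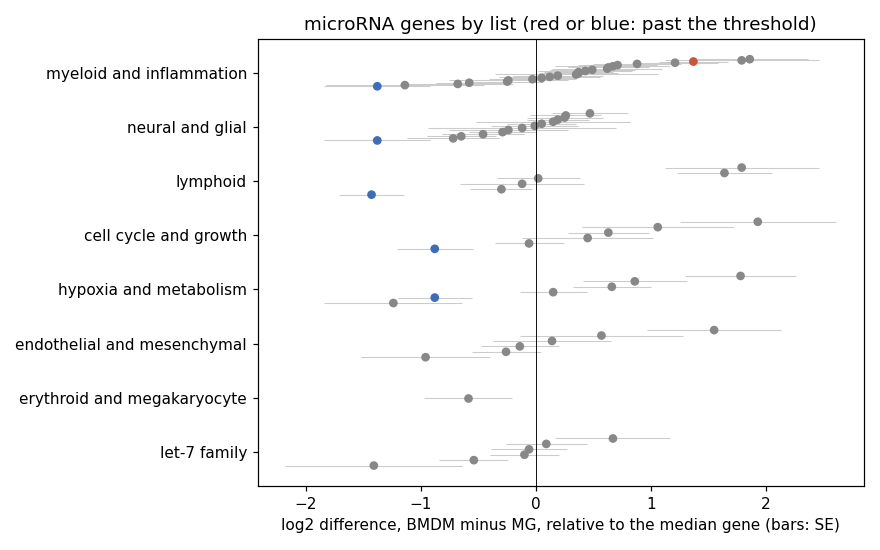
Each point is a tested microRNA gene (peaks within 100 kb summed) in a functional list, by its log2 difference, BMDM minus MG, relative to the median gene, with SE bars. Red marks a gene higher and blue genes lower in BMDM at an adjusted p under 0.05, and grey genes were not called.

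Of the 12 called peaks with the largest fitted differences above MG, 8 lay inside a protein-coding gene. At 8 of the 12, and at 30 of all 103 higher calls, the MG mean was under 10 normalized counts, so that they passed the filter only through BMDM. Their fitted differences depend on the pseudocount and their order is no result. One was at Mir5623, inside Atrnl1, with 57.5, 52.4 and 32.6 normalized counts in BMDM and 1.59, 3.28 and 4.86 in MG, a fitted difference of 3.69 ± 0.59 (SE, adjusted p 0.026 by limma). The MG 1 value lies under the 2.38 that 3 counts give in that library. A second Mir5623 peak differed by 2.82. Mir7218 (3.36, intergenic), Mir3473f (3.15, inside the survival gene Bcl2), Mir7094-1 (3.15, an exon 409345 bp away), Mir1927 (2.95, Rabgap1l), Mir802 (2.94), Mir6539 (2.92, inside the Rac activator gene Dock5), Mir365-2 (2.91), Mir3095 (2.79, inside the lysophosphatidic acid receptor gene Lpar1) and Mir6239 (2.78, inside Gpc6) were the others besides Mir511. Another 6 tested peaks had fitted differences as large and were not called. At each of these the groups did not overlap. Some hosts held several calls: 5 higher peaks lay in Bcl2, and 3 each in Adam19, a metalloprotease gene, Atrnl1, Dock5 and Nol10. The tested peaks of each host were not counted, so these numbers do not show that calls gather in these genes.

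Among called peaks, the largest losses besides Mir148a and Mir181a-2 were Mir3108, inside Zfhx3, at -1.89 ± 0.39 (SE), Mir7000 at -1.77 ± 0.28 and Mir874 at -1.77 ± 0.37 (adjusted p 0.0268, 0.026 and 0.0279 by limma). Mir3108 had 45.6, 38.2 and 67 normalized counts in BMDM and 137, 322 and 189 in MG. Mir7000, inside the kinase scaffold gene Mapk8ip1, had 101, 74.5 and 83.3 in BMDM and 312, 347 and 316 in MG, and the MG libraries lay close together. Mir99ahg (-1.60), Mir8110 (-1.57), Mir6934 (-1.52), Mir187 (-1.5) and Mir2136 (-1.49) followed. Another 73 tested peaks had differences as low as -1.49 or lower and were not called, and at 13 of them the groups did not overlap. Of the 83 tested peaks that hold a hairpin 0 were higher by limma (2 at an unadjusted p under 0.05) and 2 were lower (13 unadjusted), Mir1895 (-1.23) and Mir3086 (-1.46), which were chosen after their values were seen. The shares over all peaks were 5.33 and 1.54% called, and 15.3 and 9.58% unadjusted. Peaks that hold a hairpin lie at the annotated start. Over all promoter peaks within 1 kb of a start, 2.12% were called higher and 3.25% lower, so these calls are no result about hairpins.

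The largest differences of gene sums among called genes were as follows. Higher in BMDM were Mir802 (3.08), Mir7218 (3.07), Mir1927 (2.47), Mir8100 (2.35), Mir7058 (1.93), Mir7048 (1.88), Mir7661 (1.88), Mir7233 (1.79), Mir6539 (1.79), Mir3095 (1.73), Mir1190 (1.69) and Mir6362 (1.64), with adjusted p-values of 0.00521 to 0.0382 by limma. Mir802 averaged 4.32 normalized counts in MG and passed the filter only through BMDM. Another 11 genes had differences of 1.64 or more and were not called, among them Mir106a (1.93), Mir10a (1.86) and Mir155 (1.79), with adjusted p-values of 0.163, 0.0785 and 0.198 by limma. Lower in BMDM were Mir7000 (-1.64), Mir5114 (-1.52), Mir181a-2 (-1.43), Mir9-2 (-1.38), Mir148a (-1.31), Mir187 (-1.22), Mir7680 (-1.14), Mir2136 (-1.06), Mir701 (-0.93), Mir30a (-0.93), Mir6976 (-0.91) and Mir3086 (-0.90), with adjusted p-values of 0.00484 to 0.0458 by limma. Another 29 genes at -0.90 or lower were not called. At Mir5114 MG 2 was again the highest library, with 363, 291 and 268 in BMDM and 610, 1842 and 1058 in MG.

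Of 21 clusters of microRNA genes with starts within 10 kb of each other, 3 had BMDM libraries all above MG libraries (Mir7217 with Mir7218, Mir194-2 with Mir192, and Mir221 with Mir222) and 2 all below (Mir181a-2 with Mir181b-2, and Mir8111 with Mir1199). Cluster sums were not tested, and no share over all features was formed for clusters. Among all single gene sums tested, the groups did not overlap at 6.87% with BMDM above MG and at 21.5% with BMDM below. Mir7217 with Mir7218 had 163, 243 and 223 normalized counts in BMDM and 73.8, 55.8 and 80.7 in MG, a log2 ratio of means of 1.58. The Mir23a cluster had 9254, 5710 and 3846 in BMDM and 9493, 5143 and 6042 in MG, the highest levels of all, and the groups overlapped.

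The genes that make and carry microRNAs did not pass. Of 24 tested genes of the processing machinery (Drosha, Dgcr8, Dicer1, the Argonautes and others) 0 were called at the gene level by limma, and at an unadjusted p under 0.05 0 were higher and 2 lower, against 6.24 and 15.6% of all genes. Of 21 tested protein-coding host genes 0 were called, with 2 higher and 2 lower unadjusted. The host gene with the largest difference was Smc4 (2.0, adjusted p 0.0623 by limma).

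Peak lists of the single libraries held very different numbers of the microRNA peaks. The lists of BMDM 1, 2 and 3 held 526, 865 and 221 of the 1806 (29.1, 47.9 and 12.2%), and those of MG 1, 2 and 3 held 836, 1292 and 894 (46.3, 71.5 and 49.5%). All peaks of the table were present at 34.7, 54.5 and 17.9% in BMDM and 51.7, 73.7 and 53.8% in MG. No peak was in all 3 BMDM lists and no MG list, and 92 were in all 3 MG lists and no BMDM list. No such share was formed over all peaks of the table, so these 2 counts are no result about microRNAs. The BMDM 3 list held 17741 peaks in all, against 50217 or more in each MG list. Depth differed between the libraries, and these counts were not tested. The list of BMDM 3, the shallowest library, went best with the table column of another library in each of 3 comparisons, so its counts carry that doubt.

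**Figure D5:**
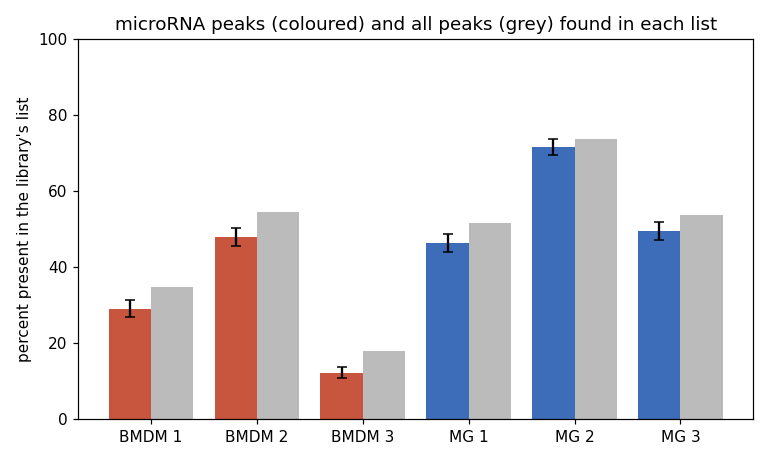
Percent of the 1806 microRNA peaks (coloured, with exact 95% intervals that cover counting error only) and of all peaks of the table (grey) that overlap a peak in each library's own list, on an axis from 0. The 3 BMDM lists held 12.2 to 47.9% of the microRNA peaks and the 3 MG lists 46.3 to 71.5%, and in each list the microRNA share lay below that of all peaks.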

How the data were processed

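ATAC-seq was measured in 3 BMDM and 3 MG libraries. The submitters' processing notes name MACS2 2.1.1.20160309, DESeq2 1.36.0, ChIPseeker 1.32.1, Bowtie2 2.4.1, cutadapt 1.8.1 and build mm10. Settings, a transposase shift and duplicate removal: not given in the sources used here. In all, the authors deposited 1 table of peaks, with variance-stabilized log2 values per library, the mean normalized signal, log2 fold changes and p-values, and per the file headers its annotation. The authors also deposited 1 peak list per library, with fold enrichment and −log10 p and q. Another 8 columns of per-sample values were not used.

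The stabilized values were inverted to normalized counts (largest relative deviation from the deposited mean 2.4e-06), and whole reads were recovered (within 0.02 read) for at least 99.9989% of peaks. The design foresaw counts or normalized values; normalized values were tested with limma 3.58.1 (R 4.3.3) with a trend on log2(normalized count + 1), which understates changes of low peaks. A mean of at least 10 was required. The limit that 3 counts allow was 1.64 to 5.951 normalized counts, for counting error only. The test was run on simulated data.

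Named are up to 12 called peaks and 12 called genes per direction, by largest difference among those without overlap, and the members of fixed lists; the members and lists were chosen with earlier results of these data known. Whether each peak list goes best with its own table column was checked in 3 ways, over presence or fold enrichment: 4, 5 and 3 of the 6 lists did, and the list of BMDM 3 never did. Columns were matched by name, and list counts are only described. Same-numbered libraries deviated together at 0.435, -0.062 and 0.36, and BMDM 3 with MG 2 at 0.422. With 3 libraries per group these values cannot decide whether the numbers pair the libraries, so no pairing was used in the main test.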

Additional observations from a re-analysis of the deposited data

How the results depend on the processing

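Main counts of microRNA peaks were 103 higher and 26 lower in BMDM, and of genes 18 and 17. Leaving out 1 library gave 0 to 203 higher and 0 to 250 lower peaks, and 0 to 31 higher and 0 to 69 lower genes; 0 peaks passed without BMDM 1, BMDM 2 or MG 3, and the counts were highest without MG 1, where the variance shared over peaks takes nearly all the weight. With voom 0 and 0 peaks and 11 and 7 genes passed. The replicate block gave 181 and 118 peaks and 37 and 66 genes. Whether the replicate numbers pair the libraries could not be decided (BMDM 3 deviated most like MG 2, at 0.422, against 0.36 for MG 3). Lower peaks numbered 48 with cyclic loess and 50 without MG 2 and 3, where the lone MG library is assumed to vary like the others. Lower genes numbered 8 with TMM factors, 6 with library totals, 8 with cyclic loess and 27 with robust moderation, and higher genes 38 with cyclic loess. Fewer peaks are tested within 10 kb (35 higher, 9 lower) and 3 kb (12 and 4). In another count, at least 0.5 of the length of a microRNA peak had to be covered by listed peaks. The lists then held 343, 737 and 91 peaks in BMDM and 704, 1202 and 704 in MG. At a −log10 q of at least 5 they held 478, 804 and 189 in BMDM and 1211 and 851 in MG 2 and 3. The cause was not tested. No named call changed direction under the alternatives run; of 603 checks of called peaks 173 lost the call, and of 458 of called genes 128. Depth limits peaks under about 10 normalized counts, and 103 peaks were not tested.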
